A study of Papio anubis with 767 samples.

Results

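The bladder libraries are 12 of the 767 RNA-sequencing libraries of a body-wide day and night atlas of the baboon Papio anubis, and were chosen by the tissue label alone. They are set against the 12 kidney medulla libraries of the same animals, as another part of the urinary tract. Each tissue was taken from 12 males of 5 to 6 years and 7 to 11 kg, which the submitters' protocol calls Papio anubis hamadryas, fed by day and kept in a cycle of 12 h light with 12 h dark. A single animal was sampled every 2 h, from ZT0 (zeitgeber time, the hours since lights on) to ZT22, after perfusion with an ice-cold buffer. The groups compared were bladder against kidney medulla, paired by animal, and within the bladder the 6 libraries of ZT0 to ZT10 (light) against the 6 of ZT12 to ZT22 (dark). No animal was treated or genetically altered. Each time is 1 animal, so time of day and animal cannot be told apart, and no time was repeated. The labels do not say which layers of the bladder wall were taken. Libraries were made from polyA RNA with a stranded kit, and values are FPKM (fragments per kilobase of transcript, scaled to the size of the library), which are per length and can be set beside each other between genes.

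The bladder stores urine behind the urothelium, a stratified epithelium whose surface umbrella cells carry plaques of uroplakins. Uroplakins Ia and Ib pair with uroplakins II and III in these plaques, and with tight junctions they make the lining a barrier to water, urea and ions. Beneath it lie a fibroblast-rich lamina propria and the detrusor, the smooth muscle that stays relaxed during filling and contracts on emptying. The kidney medulla holds loops of Henle and collecting ducts, which concentrate the urine. The circadian clock is a feedback loop in which ARNTL and CLOCK activate the PER, CRY and NR1D genes, whose products repress them. In rodents it is known to run in the bladder wall, and voiding is rarer during sleep.

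The bladder libraries held 6.24 to 20.6 M reads assigned to genes (M, 1e+06; median 8.99 M, the deepest at ZT2), and the kidney medulla libraries 1.04 M (ZT4) to 10.02 M (median 6.66 M). In the bladder libraries 8 neuron markers summed to 9.74 to 21.3 FPKM and 6 astrocyte markers to 10.5 to 51.9 FPKM, and the myelin genes MOBP and MOG were at 0 in all 12. The kidney medulla libraries of ZT0, ZT6 and ZT8 stood apart: the same neuron markers summed to 1235, 1932 and 1155 FPKM and to 52.5 FPKM at ZT4, against 7.76 to 15.96 FPKM in the other kidney medulla libraries. In the same 3 libraries the astrocyte markers summed to 956, 1095 and 922 FPKM, and the loop of Henle genes to 1542, 1253 and 2124 FPKM against 4450 to 9623 FPKM in the rest. Libraries also differed along an axis shared by the body: the first principal component of 14 other tissues (168 libraries, 7830 genes, 45.1% of the variance), on which each library was scored. The bladder library of ZT0 had the lowest bladder score, -1.56, against -0.69 to 1.06 in the other 11. The counts over all genes, and the gene lists and genes whose calls or medians moved most, are also given without the pairs of ZT0, ZT6 and ZT8, or without the bladder library of ZT0 for time of day.

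The bladder label was borne out by its markers. All 5 uroplakin genes were higher in the bladder than in the kidney medulla (adjusted p under 0.05 and at least 2-fold), beside 24.6% of all genes tested. UPK1A, the tetraspanin uroplakin Ia, measured 93.6 to 1212 FPKM in the bladder (median 510) and 0 to 2.44 FPKM in the kidney medulla (median 0.220), a log2 difference of 8.97 ± 0.41 (SE, 12 pairs; adjusted p = 1.16e-10, limma with Benjamini-Hochberg adjustment). UPK3A measured 54.3 to 1378 FPKM (median 469) in the bladder and 0 to 1.41 FPKM (median 0.364) in the kidney medulla, a log2 difference of 8.66 ± 0.40. Every bladder library lay above every kidney medulla library for both genes. UPK2, the partner of uroplakin Ia, had a median of 593 FPKM in the bladder and 1.23 FPKM in the kidney medulla (log2 difference 8.10 ± 0.29). UPK1B, the partner of uroplakin III, was the steadiest of the family, at 343 to 716 FPKM in the bladder and 1.55 to 18.5 FPKM in the kidney medulla (log2 difference 6.00 ± 0.28). UPK3B, which mesothelium also expresses, was lowest, at 8.96 to 31.7 FPKM in the bladder and 0 to 0.382 FPKM in the kidney medulla (log2 difference 4.98 ± 0.18). Log2 differences are of log2(FPKM + 0.5), so they understate the change of genes that are near 0 in a tissue.

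**Figure D1:**
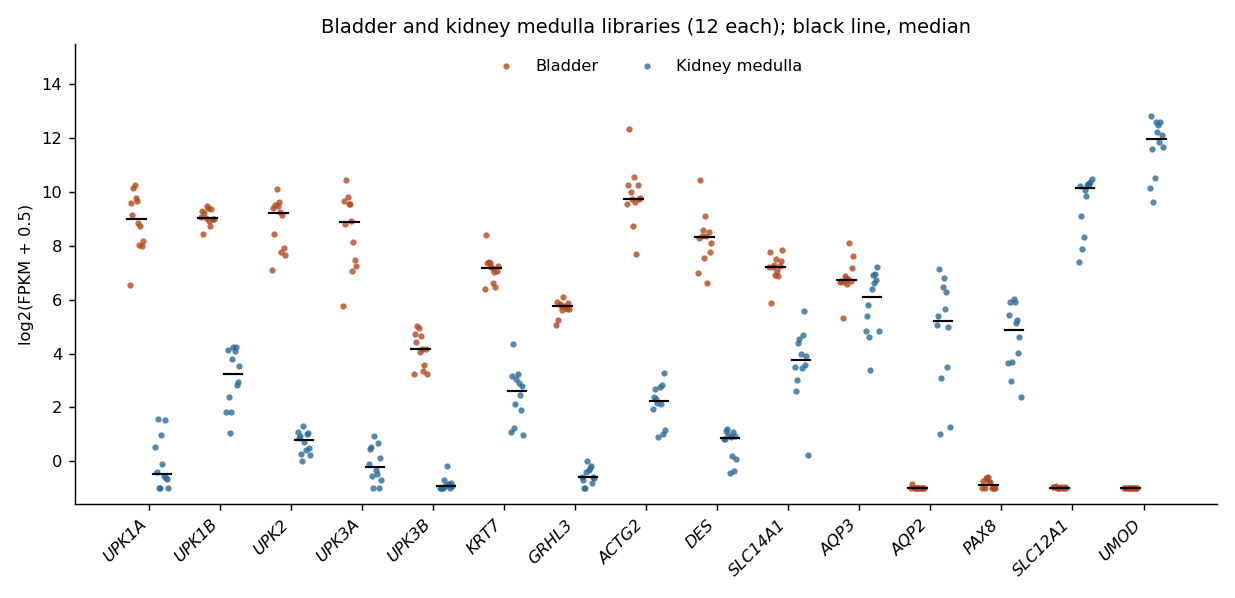
Levels of 15 genes in each library, as log2(FPKM + 0.5), with the 12 bladder libraries on the left and the 12 kidney medulla libraries on the right of each gene, and a black line at the median. For the 5 uroplakins, KRT7, GRHL3, ACTG2, DES and SLC14A1 every bladder point lies above every kidney medulla point, AQP3 overlaps, and AQP2, PAX8, SLC12A1 and UMOD lie lower in every bladder library.

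Across 16 tissues of the atlas for which levels were drawn up, the bladder had the highest median of all 5 uroplakins. The next tissue was the prostate for UPK1A (3.35 FPKM), the oesophagus for UPK1B (28.6 FPKM) and UPK2 (79.6 FPKM), and the aorta for UPK3A (35.4 FPKM) and UPK3B (11.9 FPKM, against 17.4 FPKM in the bladder). PSCA, a lipid-anchored surface protein, was at 551 FPKM in the bladder and 0.555 FPKM in the lungs, the next tissue. For other genes that are high in the bladder another tissue came first. CRISP3 was at 4211 FPKM in the oesophagus and 543 FPKM in the bladder, and ACTG2 at 2232 FPKM in the aorta and 864 FPKM in the bladder. HOXB13 was at 14.8 FPKM in the prostate and 2.75 FPKM in the bladder. These orders are descriptions of medians over 12 libraries each, without a test.

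Over all genes, 13993 were tested between bladder and kidney medulla. At an adjusted p under 0.05 and a difference of at least 2-fold, 3436 (24.6%) were higher in the bladder and 1794 (12.8%) were lower, together 5230 (37.4%), and the median log2 difference of all genes tested was 0.24. At any size 9615 (68.7%) passed. The split depended on how libraries were scaled. With values rescaled to TPM, 5503 (35.1%) were higher and 1738 (11.1%) lower, the median moving by 0.36, and with median-of-ratios scaling of these 24 libraries 2566 (18.3%) were higher and 2471 (17.7%) lower, the median moving by -0.28. Without the pairs of ZT0, ZT6 and ZT8, 3468 genes were higher and 1653 lower.

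Among the called genes with the same sign in all 12 pairs and a mean of at least 5 FPKM in the higher tissue, the 12 that were highest in the bladder included UPK1A, UPK2 and UPK3A. CRISP3, a secreted cysteine-rich protein, led with 196 to 1067 FPKM in the bladder and 0 to 0.772 FPKM in the kidney medulla (log2 difference 9.43 ± 0.23). PSCA followed with 68.6 to 2114 FPKM in the bladder and 0 to 3.35 FPKM in the kidney medulla (9.33 ± 0.41), and S100P, a calcium-binding protein, with 279 to 1146 FPKM and 0 to 2.68 FPKM in the same order (9.19 ± 0.33). The others were PM20D1, an enzyme that joins fatty acids to amino acids (8.01), the actin ACTC1 (8.01), the glutathione transferase GSTA5 (7.86), the cornified envelope precursor SPRR1B (7.75) and the smooth muscle actin ACTG2 (7.72). C10orf99, which encodes a secreted peptide, measured 33.8 to 275 FPKM in the bladder and 0 in every kidney medulla library, so its mean was at least 45.2-fold higher, taking 3 reads per library as the floor. The range of C10orf99 in the bladder lay wholly above its floor, and for CRISP3, PSCA and S100P no library of either tissue overlapped.

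The 12 lowest genes in the bladder, by the same rule, included well-known products of kidney tubules. UMOD, the most abundant protein of normal urine and a product of the thick ascending limb, was at 0 in all 12 bladder libraries and at 798 to 7342 FPKM in the kidney medulla (median 4061), at least 47900.0-fold lower in the bladder. SLC12A1, the salt cotransporter of the same segment, reached 0.0274 FPKM at most in the bladder and measured 167 to 1446 FPKM in the kidney medulla (log2 difference -10.54 ± 0.28, adjusted p = 4.88e-13). CALB1, CLDN10, HRG and KNG1 were also at 0 in every bladder library, at least 3803-fold, 931-fold, 2765-fold and 3029-fold lower. FXYD4, EGF, PPP1R1A, GAL and CDH16 had log2 differences of -9.27, -8.52, -8.31, -7.95 and -7.49. FXYD4 regulates the sodium pump in collecting duct, and CDH16 is the kidney-specific cadherin.

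The transcription factors of the urothelium were higher with the uroplakins. Of 14 tested, 13 rose in the bladder, none fell, and the median log2 difference was 1.95 (background: 24.6% of all genes higher, median 0.24). GRHL3, which acts in terminal differentiation of barrier epithelia, had one of the smallest p values of all genes: 33.1 to 68.5 FPKM in the bladder and 0 to 0.503 FPKM in the kidney medulla (log2 difference 6.23 ± 0.12, adjusted p = 4.87e-14). FOXA1, a pioneer factor, measured 12.4 to 33.3 FPKM in the bladder and at most 0.504 FPKM in the kidney medulla (5.15 ± 0.19). TP63, a factor of basal epithelial cells, measured 20.2 to 51.4 FPKM and 0.304 to 5.67 FPKM in the same order (4.03 ± 0.27). GATA3, which the collecting duct also expresses, measured 37.8 to 129 FPKM in the bladder and 5.05 to 41.7 FPKM in the kidney medulla (1.98 ± 0.28), with ranges that overlap and 11 of 12 pairs higher. SOX2 did not pass: it reached 1.26 FPKM at most in the bladder, and measured 5.38, 9.26 and 4.42 FPKM in the kidney medulla libraries of ZT0, ZT6 and ZT8 and 0 in the other 9. Without those 3 pairs SOX2 fell below the filter on low values, and 11 of 13 factors rose (median 1.61).

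Keratins and junction genes were mostly higher in the bladder. Of 12 keratins listed, 7 had a row with its own symbol and 6 passed the filter on low values, and all 6 of these were higher in the bladder. KRT7, a keratin of simple and transitional epithelium, measured 84.0 to 339 FPKM in the bladder and 1.47 to 20.1 FPKM in the kidney medulla (log2 difference 4.71 ± 0.25). KRT15, a basal keratin, had medians of 26.8 and 1.21 FPKM in bladder and kidney medulla (4.06 ± 0.32), and KRT20, a keratin of umbrella cells, had medians of 3.14 and 0 FPKM (2.67 ± 0.21). Of 20 junction genes tested, 12 rose and 2 fell in the bladder (median 1.10), beside 24.6% higher and 12.8% lower over all genes. Without the pairs of ZT0, ZT6 and ZT8 10 rose and 2 fell (median 0.86). The desmosomal cadherin DSG3 measured 5.82 to 34.4 FPKM in the bladder and at most 0.0241 FPKM in the kidney medulla (5.10 ± 0.21), and PERP, a protein of desmosomes, had a median of 234 FPKM in the bladder and 35.4 FPKM in the kidney medulla (2.88 ± 0.28). Both members that fell are abundant in collecting duct: EPCAM, with a median of 46.7 FPKM in the bladder and 629 FPKM in the kidney medulla (-3.49 ± 0.28), and the tight junction protein CLDN8, with medians of 5.08 and 120 FPKM (-3.72 ± 0.44).

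The genes of water and urea handling split between the tissues, with 2 higher, 2 lower and 1 uncalled among 5 tested. Over all genes 24.6% were higher and 12.8% lower. The uncalled gene was the water channel AQP4, which astrocytes also express: it reached 2.46 FPKM at most in the bladder, and measured 119.7, 120.6 and 106.0 FPKM in the kidney medulla libraries of ZT0, ZT6 and ZT8 and at most 0.488 FPKM in the other 9. Without those 3 pairs AQP4 fell below the filter on low values, and 1 gene of 4 was higher and 2 lower. SLC14A1, the urea transporter UT-B, measured 58.8 to 228 FPKM in the bladder and 0.686 to 47.1 FPKM in the kidney medulla (log2 difference 3.57 ± 0.40, adjusted p = 1.65e-06), with no overlap, and its bladder median of 150 FPKM was the highest of the 16 tissues. SLC14A2, the tubular urea transporter, reached 0.0842 FPKM at most in the bladder and measured 2.77 to 72.3 FPKM in the kidney medulla (-5.03 ± 0.38). AQP1, the water channel of thin limbs and endothelium, had medians of 32.4 and 181 FPKM in bladder and kidney medulla (-2.12 ± 0.23). AQP3, a water and glycerol channel of basolateral membranes, measured 39.9 to 273 FPKM in the bladder (median 106) and 9.94 to 147 FPKM in the kidney medulla (median 69.9), with wide overlap. Its log2 difference of 1.02 ± 0.33 (adjusted p = 0.0126, higher in 8 of 12 pairs) fell to 0.54 (adjusted p = 0.103) without the pairs of ZT0, ZT6 and ZT8 and to 0.72 (adjusted p = 0.0563) with median-of-ratios scaling, and it lay between 0.80 and 1.00, at most 2-fold, without any one of the pairs of ZT0, ZT2, ZT6, ZT8 and ZT22.

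Genes that sense filling in the urothelium were mixed: 6 of 14 rose, 2 fell and 6 did not pass (median 0.69), beside 24.6% higher and 12.8% lower over all genes, so the share that fell lay near that of all genes. Without the pairs of ZT0, ZT6 and ZT8 the counts were the same, with a median of 0.41. P2RY2, a receptor for the ATP that stretched urothelium releases, had medians of 6.54 FPKM in the bladder and 0.836 FPKM in the kidney medulla (log2 difference 2.34 ± 0.23). The gap junction gene GJB2 had medians of 11.2 and 0.329 FPKM (3.54 ± 0.35), and SCNN1B, a subunit of the epithelial sodium channel, had medians of 20.6 and 3.75 FPKM (2.48 ± 0.32), in each case with the bladder first. PIEZO2, a stretch-gated channel, was low in both, at 0.649 to 2.36 FPKM in the bladder and 0.0991 to 0.712 FPKM in the kidney medulla (1.30 ± 0.19; 0.91, under 2-fold, with a pseudocount of 1). The stretch-gated channel PIEZO1 averaged 3.23 ± 2.67 FPKM in the bladder and 2.06 ± 1.201 FPKM in the kidney medulla (SD, n = 12 each), and the osmosensitive channel TRPV4 averaged 8.33 ± 3.17 and 9.36 ± 6.25 FPKM; neither passed. The ATP-gated channel P2RX4 fell (-1.36 ± 0.17, lower in all 12 pairs), as did the prostaglandin synthase PTGS1 (-1.26 ± 0.31; -0.93, under 2-fold, with TPM scaling). The connexin GJA1 measured 55.9 to 93.6 FPKM in the bladder and 174 to 198 FPKM in the kidney medulla of ZT0, ZT6 and ZT8 but 1.32 to 10.9 FPKM in the other 9. Its log2 difference was 2.67 ± 0.59 over 12 pairs and 3.92 ± 0.21 without those 3.

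The smooth muscle of the wall was as plain as the epithelium. All 19 contractile genes tested rose in the bladder (median 4.66), beside 24.6% of all genes. ACTG2, the enteric smooth muscle actin, measured 207 to 5160 FPKM in the bladder and 1.39 to 9.16 FPKM in the kidney medulla (log2 difference 7.72 ± 0.31), and DES, the muscle intermediate filament, 97.7 to 1394 FPKM and 0.246 to 1.77 FPKM (7.61 ± 0.28). MYOCD, the coactivator that drives the smooth muscle programme, measured 3.86 to 29.3 FPKM in the bladder and at most 0.240 FPKM in the kidney medulla (3.80 ± 0.18). Bladder libraries lay above all kidney medulla libraries for these genes, and fewer cells of a type and less RNA per cell cannot be told apart in such samples. Of 15 receptors and channels by which detrusor contraction and relaxation are controlled, 12 rose and 1 fell (median 2.05). The purinergic receptor P2RX1 had medians of 13.6 FPKM in the bladder and 0.167 FPKM in the kidney medulla (3.95 ± 0.41), the neurokinin receptor TACR2 17.2 and 0.0394 FPKM (4.93 ± 0.38), and the muscarinic receptor CHRM2 4.78 and 0 FPKM (2.95 ± 0.39). KCNMB1, the beta subunit of the large-conductance potassium channel, rose by 5.31 ± 0.30, and PDE5A, the phosphodiesterase that ends cGMP signals, by 4.09 ± 0.21. PTGER3, a prostaglandin E receptor of the thick ascending limb as well as of smooth muscle, was the one that fell, with medians of 2.33 FPKM in the bladder and 151 FPKM in the kidney medulla (-5.57 ± 0.27).

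Fibroblast genes and most T cell, macrophage and mast cell markers were higher too. Over all genes 24.6% were higher and 12.8% lower. Among 12 fibroblast and matrix genes, 11 rose (median 3.51), among them the collagen gene COL1A1 (medians 115 and 0.645 FPKM in bladder and kidney medulla, log2 difference 6.89 ± 0.36) and the matrix protein POSTN (160 and 0.589 FPKM, 7.09 ± 0.26). All 5 T cell markers tested rose (median 1.68), as did 6 of 7 macrophage markers (median 1.83) and 4 of 6 mast cell markers (median 2.43), with the mast cell protease CPA3 at 9.61 to 24.2 FPKM in the bladder and at most 1.37 FPKM in the kidney medulla (4.30 ± 0.20). None of 6 B cell markers passed the filter on low values. Endothelial markers were mixed, with 2 of 6 higher and 1 lower, not far from the shares of all genes. Their median of 0.23 turned to -0.05 with median-of-ratios scaling and to -0.15 without the pairs of ZT0, ZT6 and ZT8. Immediate early genes, which are switched on within minutes of a stimulus, were higher as a group: 17 of 18 rose (median 2.11), with FOS at 44.7 to 215 FPKM in the bladder and 6.13 to 39.9 FPKM in the kidney medulla (2.83 ± 0.34) and ATF3 at 9.47 to 287 FPKM and 0.275 to 4.05 FPKM (4.05 ± 0.37).

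Most nephron genes listed were lower in the bladder, those of collecting duct principal cells only in part. All 9 loop of Henle genes tested were lower in the bladder (median -6.18, or -6.39 with the 3 genes at 0 set to their bound), as were all 10 intercalated cell genes (median -5.42), all 9 proximal tubule genes (median -2.56, or -4.04 with 2 genes at their bound) and all 12 kidney lineage transcription factors (median -2.46, or -2.60 with 1 at its bound), beside 12.8% of all genes. Without the pairs of ZT0, ZT6 and ZT8 every tested member of these 4 lists was again lower, with medians of -6.62, -5.61, -2.68 and -2.75 in the same order. The potassium channel KCNJ1 had medians of 1.12 FPKM in the bladder and 396 FPKM in the kidney medulla (log2 difference -7.48 ± 0.36), the carbonic anhydrase CA2 of intercalated cells 0.291 and 115 FPKM (-6.94 ± 0.24), and the lineage factor PAX8 0.0440 and 29.5 FPKM (-5.42 ± 0.31). Of 11 genes of collecting duct principal cells 6 fell, among them the water channel AQP2 (at most 0.0559 FPKM in the bladder, 1.495 to 139 FPKM in the kidney medulla), and 2 rose, AQP3 and SCNN1B, which the urothelium also expresses; without the pairs of ZT0, ZT6 and ZT8 1 of 10 rose and 6 fell. Among 6 genes of osmolyte handling 3 fell, with the betaine transporter SLC6A12 at -2.05 ± 0.38, and 1 rose, the tonicity-responsive factor NFAT5 (1.04 ± 0.21), which dropped under 2-fold in 9 of the 23 alternatives. HOX genes of groups 9 to 13, which record position along the body axis, split: HOXA11 and HOXB13 rose, and HOXB9, HOXC9, HOXC10 and HOXD9 fell, among 7 tested. Over all genes 24.6% were higher and 12.8% lower. The shares of principal cell, osmolyte and HOX genes that rose lay near or below that of all genes. HOXA11 had medians of 9.03 and 2.46 FPKM (1.76 ± 0.19) and HOXC10 0.258 and 12.4 FPKM (-3.65 ± 0.27) in bladder and kidney medulla, while HOXB13 was at 0 in every kidney medulla library and averaged 3.02 ± 1.79 FPKM in the bladder, at least 8.82-fold higher.

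**Figure D2:**
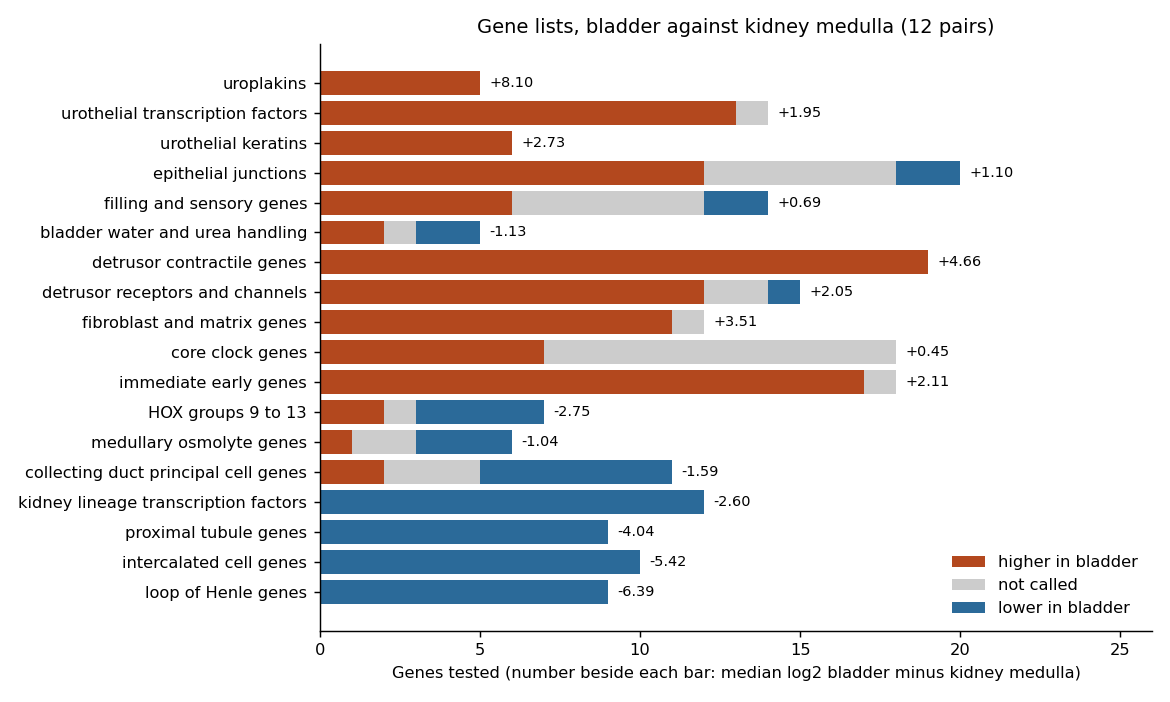
Number of tested members of each gene list that were higher in the bladder, not called, or lower in the bladder (adjusted p under 0.05 and at least 2-fold), with the median log2 difference beside each bar, bounds included. Uroplakins, urothelial transcription factors and detrusor genes are almost wholly higher, and loop of Henle, intercalated cell and proximal tubule genes wholly lower.

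The bladder libraries differed among themselves in both layers of the wall. The 5 uroplakins summed to 826 FPKM at ZT0 and to 1058 FPKM at ZT16, against 3883 FPKM at ZT6 and 3768 FPKM at ZT8. The 19 contractile genes summed to 33160 FPKM at ZT4 and to 2611 FPKM at ZT16, against 4581 to 12450 FPKM in the other 10 libraries, and the 12 fibroblast genes ranged from 2856 FPKM (ZT12) to 6752 FPKM (ZT4). UPK1B kept a range of 343 to 716 FPKM while PSCA ranged from 68.6 FPKM (ZT0) to 2114 FPKM (ZT6).

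**Figure D3:**
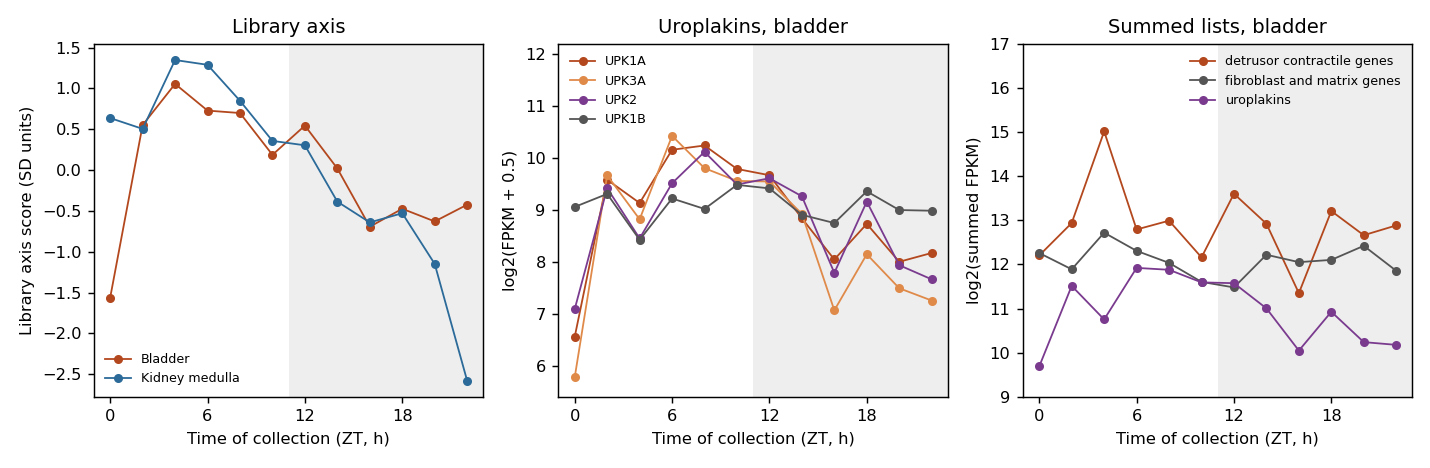
Bladder libraries by time of sampling: the score on the body-wide library axis for bladder and kidney medulla, 4 uroplakins in the bladder as log2(FPKM + 0.5), and the log2 of the summed FPKM of 3 gene lists in the bladder, with ZT12 to ZT22 in grey. The ZT0 bladder library has the lowest score (-1.56) and the lowest uroplakin sum (826 FPKM), and the contractile genes peak at ZT4 (33160 FPKM).

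Between ZT0-10 and ZT12-22 in the bladder no gene passed. Of 12410 genes tested with limma, 0 (0%) had an adjusted p under 0.05 and 732 (5.90%) an unadjusted p under 0.05, with a median log2 difference of 0.02. The count rested on 1 library: without ZT0 1357 genes (10.9% of 12465) were called, 1139 of them higher at ZT2-10. The library axis score averaged 0.28 ± 0.94 at ZT0-10 and -0.28 ± 0.47 at ZT12-22 (SD, n = 6 each; exact permutation test, two-sided, p = 0.225), and without ZT0 the difference was 0.920 instead of 0.553 (exact permutation p = 0.0087). Its part in the 1357 calls was not tested.

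The 6 genes with the smallest p were picked for their difference, so the distance between their ranges follows from that choice. The light and dark ranges of NR1D1, ARRDC3 and ARHGAP25 did not overlap, and those of IER3, TSC22D3 and FKBP5 did. NR1D1, the nuclear receptor REV-ERB alpha of the clock, measured 3.80, 5.18, 4.43, 6.01, 13.6 and 13.7 FPKM from ZT0 to ZT10 and 23.7, 45.03, 47.6, 25.7, 22.8 and 17.6 FPKM from ZT12 to ZT22. Every dark library was above every light one, and the log2 difference was -1.98 ± 0.34 (unadjusted p = 5.73e-05, adjusted p = 0.355; adjusted p = 0.035 without ZT0). ARRDC3, an arrestin-like gene, measured 40.1 to 74.8 FPKM at ZT0-10 and 26.6 to 36.2 FPKM at ZT12-22 (0.89 ± 0.15, adjusted p = 0.355). ARHGAP25, a leukocyte Rac regulator, measured 7.78 to 10.1 FPKM and 11.5 to 15.2 FPKM in the same order (-0.61 ± 0.12, adjusted p = 0.645), again without overlap. IER3, a stress-responsive gene, measured 2.66 to 8.28 and 6.46 to 17.1 FPKM (-1.30 ± 0.29). TSC22D3 and FKBP5, both targets of the glucocorticoid receptor, measured 30.6 to 85.1 against 16.5 to 32.6 FPKM (1.16 ± 0.26) and 7.72 to 42.0 against 4.79 to 13.3 FPKM (1.55 ± 0.36), with ZT0-10 first and some overlap. The last 3 had an adjusted p of 0.645 and, without ZT0, of 0.035. The uroplakins had a median log2 difference of 0.55, UPK1A with 0.67 ± 0.54 (adjusted p = 0.656; 1.21 and adjusted p = 0.0371 without ZT0) and UPK3A with 0.94 ± 0.69 (adjusted p = 0.647; 1.58 and 0.0415 without ZT0). Filling genes gave none called with or without ZT0, and contractile genes had a median of 0.18.

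A smooth 24 h curve described more genes than the split into light and dark did. A cosine and a sine term of 24 h passed for 2723 of 12410 genes (21.9%; 5202, or 41.9%, at an unadjusted p under 0.05), and 1607 of these (59.0%) peaked between ZT6 and ZT10. With the library axis score in the fit 100 genes (0.806%) passed, 93 of them also called without it, and 4 (4.00%) peaked in that window. The count also rested on single libraries: it was 294 without ZT8, 441 without ZT6, 1237 without ZT22, 1359 without ZT16, 1385 without ZT18, 1593 without ZT14, 1725 without ZT20 and 3700 without ZT0. What the axis score follows (time, animal or RNA quality) was not tested, and time and animal cannot be told apart with 1 animal per time. Bladder and kidney medulla of the same animal scored -1.56 and 0.64 at ZT0, and -0.42 and -2.58 at ZT22. At the other times both scores lay closer.

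Genes were named by smallest p, some that peaked from ZT0 to ZT12 and some from ZT12 to ZT24. They include 4 that bear on the clock or its outputs and are described next: NR1D1, NR1D2, ARNTL and CYP1A1. NDRG4 was higher at ZT8, ZT10 and ZT14 (17.62, 16.97 and 17.06 FPKM) than at ZT0 (2.46 FPKM), with a fitted peak at ZT11.3 (adjusted p = 0.00827; 0.0341 with the axis score). RBBP8NL, BATF and YPEL3 peaked at ZT9.06, ZT7.88 and ZT9.46, SUSD4 at ZT12.3, PUS7 at ZT22.3 and CNDP1 at ZT23.1, each with an adjusted p between 0.00814 and 0.00915. Of these 6, BATF did not pass with the axis score.

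Several clock genes passed the 24 h test in the bladder. Of 18 core clock genes tested, 10 passed (21.9% of all genes did), and with the axis score ARNTL and NR1D1 passed. NR1D1 had a log2 amplitude of 1.56 ± 0.15, an 8.75-fold range from fitted trough to peak, and a peak at ZT15.3 (adjusted p = 0.00635; 0.00624 with the axis score). It stayed called in every alternative run, with adjusted p between 0.000437 and 0.0234. ARNTL, the activator that NR1D1 represses, measured 5.47 FPKM at ZT4, 26.1 FPKM at ZT12 and 5.99 FPKM at ZT20, with a peak at ZT11.8 and a 4.06-fold range (adjusted p = 0.00827; 0.0219 with the axis score). NR1D2, the paralogue of NR1D1, measured 14.2 FPKM at ZT6 and 66.8 FPKM at ZT20 and peaked at ZT19.0 (4.10-fold, adjusted p = 0.00814; 0.0713 with the axis score). Also called were PER3 (peak ZT20.9, adjusted p = 0.0124), BHLHE41 (ZT19.3, 0.0125), CRY1 (ZT3.63, 0.0193), NPAS2 (ZT9.55, 0.0320), DBP (ZT16.7, 0.0339) and PER2 (ZT1.57, 0.0367). CRY1, a repressor of the loop, measured 8.93 FPKM at ZT4 and 1.49 FPKM at ZT16. DBP, an output factor, measured 2.58 FPKM at ZT0 and 15.48 FPKM at ZT16. TEF missed (peak ZT20.4, adjusted p = 0.0605), as did PER1 (ZT2.68, 0.189), CLOCK, CRY2, RORA, HLF, NFIL3 and BHLHE40. DBP, NPAS2 and PER2 each lost the call without any of 7 or more single libraries, and CRY1 without ZT8 (adjusted p = 0.0502). In level, 7 of the 18 were higher in the bladder than in the kidney medulla and none lower, with a median log2 difference of 0.45. Over all genes 24.6% were higher and 12.8% lower, with a median of 0.24. With median-of-ratios scaling 5 clock genes were higher and 1 lower, beside 18.3% higher and 17.7% lower over all genes. BHLHE41 (3.06 ± 0.39), CLOCK (1.94 ± 0.18) and NPAS2 (1.72 ± 0.15) were higher in all 12 pairs, and NR1D1 (1.46 ± 0.48) in 9.

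**Figure D4:**
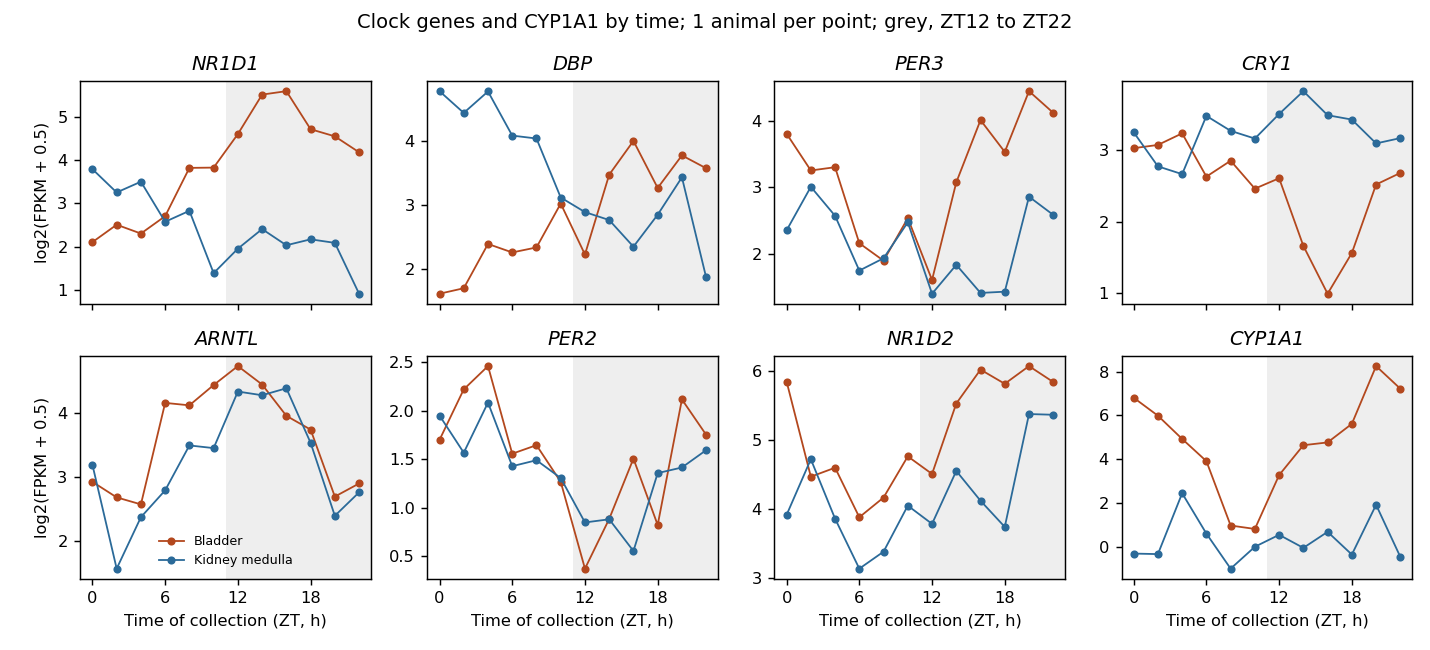
Levels, as log2(FPKM + 0.5), by time of sampling for 7 clock genes and CYP1A1 in the 12 bladder and the 12 kidney medulla libraries, 1 animal per point, with ZT12 to ZT22 in grey. In the bladder NR1D1 is highest at ZT16 (47.6 FPKM) and ARNTL at ZT12 (26.1 FPKM); in the kidney medulla NR1D1 is highest at ZT0 (13.3 FPKM).

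CYP1A1, a cytochrome P450 that the aryl hydrocarbon receptor induces, had the widest fitted 24 h range of these genes. It measured 112, 62.9, 29.9, 14.5, 1.46 and 1.26 FPKM from ZT0 to ZT10 and 9.17, 24.4, 26.7, 48.5, 304 and 149 FPKM from ZT12 to ZT22. The values fell at each step through the light phase and climbed at each step to ZT20. The fitted log2 amplitude was 2.90 ± 0.31, a 55.9-fold range with a peak at ZT21.6 (adjusted p = 0.00635; 0.0307 with the axis score), while the light and dark libraries overlapped (-1.73 ± 1.10, adjusted p = 0.645). Kidney medulla held 0 to 4.94 FPKM and no such course (log2 amplitude 0.14, adjusted p = 0.962). Of the 16 tissues the bladder median, 28.3 FPKM, was second to that of the liver, 54.1 FPKM, where the 24 h fit had an amplitude of 2.09 and a peak at ZT17.9 (adjusted p = 0.281).

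Uroplakin, filling and glucocorticoid genes passed the 24 h test in part, with 1 animal per time. Of the 5 uroplakins 4 passed the 24 h test, which 21.9% of all genes did: UPK3B (peak ZT7.44), UPK3A (ZT8.43), UPK1A (ZT8.60) and UPK2 (ZT9.41), with fitted ranges of 2.54-, 8.20-, 5.12- and 4.07-fold and adjusted p of 0.0370, 0.0244, 0.0249 and 0.0308. UPK1A measured 1144 and 1212 FPKM at ZT6 and ZT8 and 93.6 FPKM at ZT0, and from ZT16 to ZT22 it kept to 256 to 425 FPKM. UPK1B did not pass (1.15-fold, adjusted p = 0.789). None of the 4 passed with the axis score (adjusted p 0.353 to 0.800) or without ZT6 (0.0616 to 0.0939) or ZT8 (0.0638 to 0.0950). Among filling genes 4 of 13 passed, a share not far from the 21.9% of all genes: TRPV4 (peak ZT9.41, adjusted p = 0.0275), SCNN1B (ZT9.00, 0.0196), SCNN1A (ZT12.3, 0.0418) and PTGS2 (ZT21.4, 0.0492), and none with the axis score. PIEZO1 missed (ZT6.95, adjusted p = 0.0525), and GJA1 was flat, with a log2 amplitude of 0.02 ± 0.11 (adjusted p = 0.982). No contractile gene of 19 and no receptor or channel of 15 passed. Of 12 glucocorticoid and fasting genes 6 passed (21.9% of all genes did), among them FKBP5 (peak ZT4.00, adjusted p = 0.0262), TSC22D3 (ZT4.53, 0.0144) and ZBTB16 (ZT4.65, 0.0257) in the first hours of light, and the metallothionein MT2A (ZT7.27, 17.6-fold, 0.00952) with ANGPTL4 (ZT7.03, 0.0162) near midday. None of these passed with the axis score. TP63 was the 1 urothelial factor called with it (peak ZT11.9, adjusted p = 0.0152; 0.0453 with the score).

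The timing of several clock genes in the bladder lay apart from that in the kidney medulla of the same animals, but no gene passed a test of that difference. NR1D1 peaked at ZT15.3 in the bladder and ZT3.32 in the kidney medulla, DBP at ZT16.7 and ZT3.95, and CRY1 at ZT3.63 and ZT14.1. ARNTL (ZT11.8 and ZT13.6), NR1D2 (ZT19.0 and ZT20.4) and PER2 (ZT1.57 and ZT2.12) lay closer. The kidney medulla fits of these 6 genes did not pass (adjusted p 0.0614 to 0.247), and 1 gene of 12700 (0.00787%) did there. In kidney medulla NR1D1 measured 13.3, 9.01, 10.8, 5.45, 6.59 and 2.12 FPKM from ZT0 to ZT10 and 1.38 to 4.79 FPKM from ZT12 to ZT22. The ZT0-10 minus ZT12-22 difference of NR1D1 was -1.98 in the bladder and 0.96 in the kidney medulla, a difference between tissues of -2.94 ± 0.57 (unadjusted p = 0.000145, adjusted p = 0.180), and that of DBP was -1.16 and 1.51, a difference between tissues of -2.67 ± 0.50 (unadjusted p = 0.000112, adjusted p = 0.180). Of 11117 genes tested for such a difference between tissues with limma, 0 (0%) passed and 2303 (20.7%) had an unadjusted p under 0.05. Without the pairs of ZT0, ZT6 and ZT8 674 of 10831 had an unadjusted p under 0.05, and with the axis score 324 of 11117, with 0 passing in both. Without those pairs the difference between tissues was -2.76 ± 0.65 for NR1D1 and -2.42 ± 0.62 for DBP (adjusted p = 0.770 for both). Without ZT10 4 passed, among them NR1D1 (-3.43, adjusted p = 0.0230) and DBP (-3.04, adjusted p = 0.0356), and without ZT4 1 unnamed gene row did. The 3 named genes with a smaller p than DBP were TRGV10, a T cell receptor segment (1.82 ± 0.31), the chemokine CCL2 (2.06 ± 0.38) and TMEM91 (-3.06 ± 0.57).

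A 24 h term fitted to the 12 differences between both tissues, a test added after the data were seen, gave 0 calls of 11117 (0%) with limma and 683 (6.14%) at an unadjusted p under 0.05. NR1D1 had an amplitude of 2.22 ± 0.37 (unadjusted p = 0.000178, adjusted p = 0.445; 0.0543 with the axis score, 0.245 without the pairs of ZT0, ZT6 and ZT8, and 0.0171 without ZT22). CRY1 had 1.11 ± 0.21, PER3 1.03 ± 0.20 and DBP 1.87 ± 0.38 (unadjusted p 0.000595, 0.000832 and 0.00114; adjusted p 0.595, 0.595 and 0.605), and ARNTL had 0.48 ± 0.19 (unadjusted p = 0.0695) and PER2 0.16 ± 0.22 (unadjusted p = 0.782). CYP1A1 had the smallest p (2.80 ± 0.34, adjusted p = 0.0881; 0.0175 with a pseudocount of 1 and 0.0492 without ZT14). In kidney medulla 2647 of 12700 genes (20.8%) differed between ZT0-10 and ZT12-22. All 3 kidney medulla libraries with brain markers fall in ZT0-10, and the kidney medulla axis score differed by 1.66 between ZT0-10 and ZT12-22 (exact permutation p = 0.0022, two-sided), whose part in these differences was not tested.

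Set beside 15 other tissues of the same animals, the bladder peak of NR1D1 was the earliest between ZT12 and ZT24, ahead of the prostate (ZT18.4) and abdominal muscle (ZT19.0). The others peaked between ZT20.4 and ZT23.7, except the duodenum (ZT1.40), the kidney medulla (ZT3.32) and the visual cortex (ZT6.60). DBP peaked at ZT16.7 in the bladder and between ZT22.3 and ZT4.92, a span across lights on, in the other 15. CRY1 peaked at ZT3.63 in the bladder and between ZT7.82 (skin) and ZT14.1 in the others. ARNTL, at ZT11.8, lay inside the range of the other 15, ZT10.2 to ZT15.4. Many of these fits did not pass in their own tissue, the 12 animals are shared by all tissues, and the orders are given without a test.

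**Figure D5:**
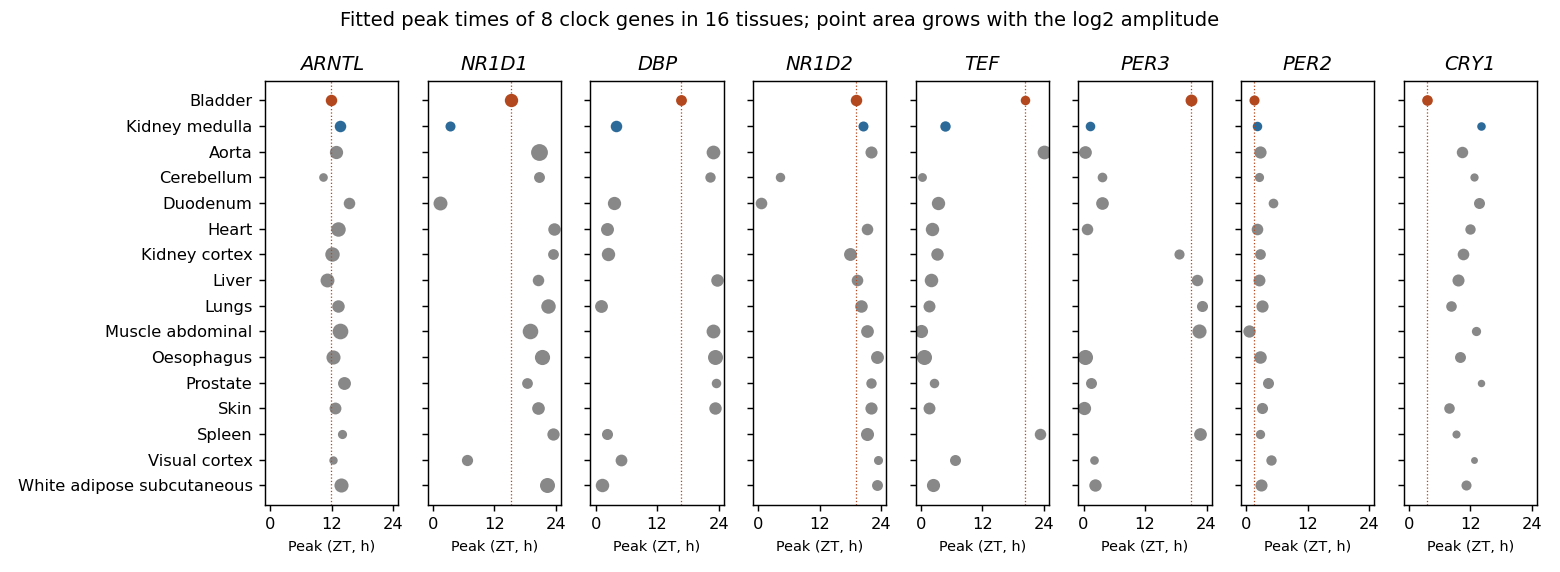
Fitted peak time (ZT, h) of 8 clock genes in 16 tissues, with point area growing with the log2 amplitude, the bladder in red at the top with a dotted line at its peak, the kidney medulla in blue and the other tissues in grey. The bladder points of DBP (ZT16.7) and CRY1 (ZT3.63) lie outside the range of the other tissues, no other tissue peaks near that of NR1D1 (ZT15.3), and that of ARNTL (ZT11.8) lies within the range.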

How the data were processed

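The deposited values are FPKM per gene, made by the authors and scaled between libraries. Per the submitters' processing notes STAR, featureCounts and DESeq2 were used; their versions and roles, and a genome build, were not given in the sources used here. All values were whole reads (within 0.01 read) times a step per gene and per library, and the recovered reads served for depth only. The table has 29202 rows, 16091 with a symbol of their own; 192 columns (16 tissues) were used, and 575 were not used here. No sequence is printed.

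Values were taken as log2(FPKM + 0.5), for genes with a mean of at least 1 FPKM in the libraries compared, and fitted with limma 3.58.1 (R 4.3.3) with a variance trend and Benjamini-Hochberg adjustment over all genes tested: the tissue comparison paired by animal, the light and dark libraries of the bladder unpaired, and a 24 h cosine and sine term (amplitude and peak time follow from both). Every library resembled most the other tissues of its own time (12 of 12 bladder libraries, r 0.816 to 0.944, and 12 of 12 kidney medulla libraries, r 0.745 to 0.884). The genes compared were picked for varying between times in the other tissues. The labels place 1 animal at each time, so a match by animal and a match by time cannot be told apart. The 37 gene lists and the members were chosen with earlier results of these data known. Genes named are the 12 called genes at each end of the tissue comparison (same sign in 12 pairs, 5 FPKM or more in the higher tissue), the 6 with the smallest p for ZT0-10 against ZT12-22, 6 in each direction of the 24 h test and 4 for its difference between tissues, and list members; some of these genes are not reported here. The axis is a component computed from 14 other tissues, bladder and kidney medulla left out. Each library's score comes from its own gene values on that component, so tissues of the same animal can differ. At ZT0 the score was -1.56 in the bladder and 0.64 in the kidney medulla. Other pseudocounts (0.1 and 1), filters, scalings, thresholds, designs and left-out libraries were tried; leaving out the ZT4 pair with the 3 others, the 24 h term of the difference, the peaks of 16 tissues and the axis score without each library were chosen after seeing the data. Fits were tested in R on simulated data, with independent noise per gene around bladder levels for both tissues. The simulated data held no shared library axis or animal effect, so they cannot show how the fits behave where such effects exist. Tables were made with Python 3.11.15, pandas 2.3.3 and numpy 2.4.6, and figures with matplotlib 3.10.9.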

Additional observations from a re-analysis of the deposited data

Results flagged for a closer look

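Within ZT0-10 and within ZT12-22, the highest and lowest of the 6 bladder libraries were compared with the others, for 45 genes, the reads and the axis score (94 groups of 6). In 11 groups 1 library stood apart by more than Dixon's 95% critical value for its gap over the range; chance flags about 1 in 20 groups, and the flags share libraries.

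The ZT0 library accounts for 7 of the 11. It held 93.6 FPKM of UPK1A against 562 to 1212 FPKM in the other 5 libraries of ZT0-10, and 54.3 FPKM of UPK3A against 452 to 1378 FPKM. MT2A was at 0.330 FPKM there against 6.30 to 18.8 FPKM, ANGPTL4 at 0.479 FPKM against 4.47 to 9.498 FPKM, NPAS2 at 7.52 FPKM against 11.5 to 12.0 FPKM, and TRPV4 at 2.52 FPKM against 7.79 to 13.3 FPKM. Its axis score was -1.56 against 0.19 to 1.06. The ZT2 library had 20.6 M reads against 8.41 to 11.2 M in the others of ZT0-10. At ZT12 NR1D2 was at 22.2 FPKM against 45.7 to 66.8 FPKM and TEF at 4.23 FPKM against 9.13 to 13.3 FPKM, and at ZT20 ARHGAP25 was at 11.5 FPKM against 14.4 to 15.2 FPKM.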

How the results depend on the processing

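For the tissue comparison, 1806 of 1836 re-runs over 80 named genes and 23 alternatives kept the direction and the call; 30 kept the direction without the call, and none reversed. At 4-fold 1728 genes were called (1119 higher, 609 lower), and with a filter at 5 FPKM 1186 were lower. With TPM scaling 5503 were higher. Without the replicate block, that is without pairing by animal, 5202 genes were called against 5230 with it, and no named call changed. Without 1 pair at a time the count ran from 5077 to 5343 (3352 to 3560 higher, 1658 to 1903 lower), and without the pairs of ZT0, ZT4, ZT6 and ZT8 it was 5023.

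For ZT0-10 against ZT12-22, leaving out 1 library gave 0 to 1357 calls; only the setting without ZT0 gave any. For the 24 h test the count was 1780 with a filter at 5 FPKM, 1655 with no filter and 100 with the axis score, and 294 to 3700 without 1 library (441 without ZT6, 1593 without ZT14, 1359 without ZT16, 1385 without ZT18, 1725 without ZT20, 1237 without ZT22). The difference between tissues of the ZT0-10 minus ZT12-22 effect gave 0 to 4 calls and the 24 h term of the difference 0 to 1 without 1 animal, and the 24 h term gave 1 call (CYP1A1) with a pseudocount of 1. The axis score difference between ZT0-10 and ZT12-22 in the bladder ran from 0.397 to 0.920 without 1 library. Of 733 re-runs over 37 genes of the 24 h test 107 lost and 6 gained the call. The causes of these shifts were not tested.

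Depth limits low genes: the shallowest kidney medulla library has 1.04 M reads, so 0 there allows up to 3 reads, and floors cover counting error only. With 1 animal per time, p-values measure the spread between animals along a fitted curve.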
